A study of Arabidopsis thaliana with 4 samples.

Results

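Glucosinolates are sulfur-rich thioglucosides that Arabidopsis stores as defence compounds and that the enzyme myrosinase breaks down into toxic products when tissue is damaged. Aliphatic glucosinolates are made mainly from chain-elongated methionine and indolic ones from tryptophan: a CYP79 enzyme turns the amino acid into an aldoxime, a CYP83 enzyme oxidises it, sulfur is added from glutathione, and glucose and sulfate are put on before the side chain is modified. Different R2R3-MYB factors serve each branch, with MYB28, MYB29 and MYB76 on the aliphatic side and MYB34, MYB51 and MYB122 on the indolic side. The 33 genes described here were chosen by a list of gene identifiers, drawn up with earlier results of these data known: 20 belong to the aliphatic branch, 8 to the indolic branch and 5 to both. Of these, 32 are among the 32548 genes of the deposited table and 31 passed the filter on low values. AOP2, which RefSeq annotates as a pseudogene in this accession's genome, was not analysed here, and GSTF11 is listed at 0 in all 4 libraries.

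The study asked what happens when TCX5 and TCX6, CXC-domain proteins of the plant DREAM complex that represses cell cycle and DNA methylation genes, are removed from plants that already lack the DNA methyltransferase CMT3. One group is labelled tcx5/6;cmt3, a triple mutant of TCX5, TCX6 and CMT3 called the labelled triple mutant here, and the other is labelled cmt3-/-, so the cmt3 mutation is common to both and no wild type was analysed here. All plants were 2-week-old seedlings on MS plates under 16 h light and 8 h dark at 22 °C, and each of the 2 groups has 2 mRNA-seq libraries from whole seedlings. Alleles and plants per library are not stated in these sources, and nothing says that the replicates were separate cultures, so p-values reflect library-to-library spread that may be technical.

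The labels were first checked against the mutated genes. TCX5 had normalized values of 251 and 249 in the labelled triple mutant, against 729.8 and 676 in cmt3 (log2 fold change -1.49 ± 0.12, SE, limma adjusted p = 0.00121). TCX6 went against its label, with 919 and 1034 in the labelled triple mutant, against 198 and 179.8 in cmt3 (log2 fold change 2.36 ± 0.13, SE, limma adjusted p = 0.000440). CMT3, mutated in both groups, had 1289 and 1343 in the labelled triple mutant, against 822 and 662 in cmt3 (log2 fold change 0.83 ± 0.12, SE, limma adjusted p = 0.00985). Reads outside a disrupted part of a gene would not check its label. Every direction given here is therefore that of the libraries labelled tcx5/6;cmt3 relative to cmt3, whatever the state of TCX6 in them. Column totals of the normalized values ran from 38264463 to 41106102. Replicates correlated at 0.985 in the labelled triple mutant and 0.981 in cmt3, against 0.968 to 0.969 between groups (Pearson's r of log2 values across genes, which are not independent replicates). Leaf and root marker genes were detected in all 4 libraries, as the seedling label implies. In whole seedlings, fewer cells of a type and less RNA per cell cannot be told apart.

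Most of the glucosinolate genes that passed the test belong to the indolic branch. MYB34, CYP79B2, CYP79B3 and CYP81F2, which are a regulator, both entry enzymes and a side-chain hydroxylase of the indolic branch, were lower in the labelled triple mutant, at 0.550, 0.637, 0.686 and 0.567 times their cmt3 level. IMD1, the dehydrogenase of methionine chain elongation, was higher at 1.47 times. Limma with Benjamini-Hochberg adjustment over 23666 genes thus called 5 of 31 tested members, 1 higher and 4 lower, where it called 8.47% of all genes, 6.15% higher and 2.32% lower. The other 26 did not pass. By branch, 4 of 8 indolic members fell and 0 rose, while 0 of 18 tested aliphatic members fell and 1 rose, and 0 of the 5 members that serve both branches passed in either direction. The median log2 fold change was -0.37 in the indolic branch (range -0.86 to 0.32), 0.01 in the aliphatic branch (range -0.15 to 0.56) and 0.13 in the genes common to both, against -0.02 over all genes tested. Libraries of the groups did not overlap in 18 of the 31 members, against 50.1% of all genes. In the indolic branch 1 such gene was higher and 6 were lower, and in the aliphatic branch 4 were higher and 3 lower. Among the members common to both, 3 were higher and 1 was lower, where 24.4% of all genes were higher without overlap and 25.7% lower. The difference between the branches was not itself tested.

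**Figure D1:**
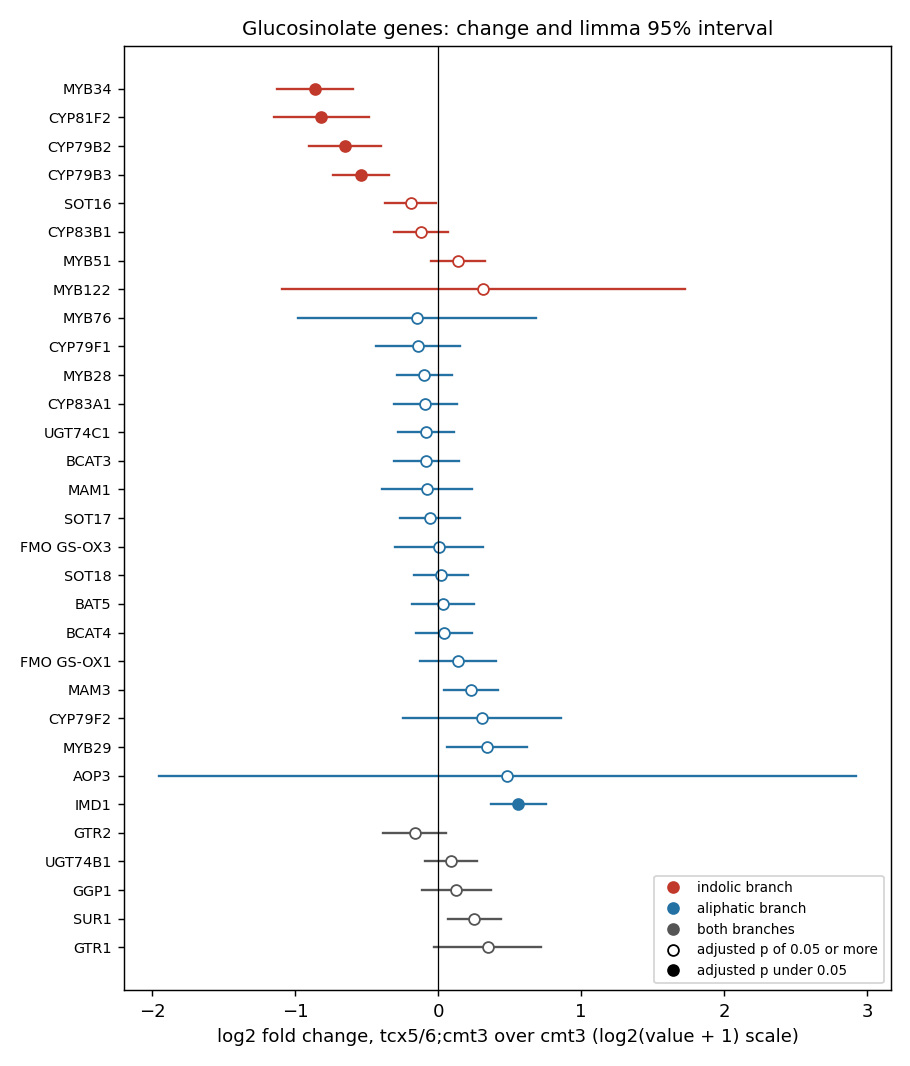
Log2 fold change of each tested glucosinolate gene (x axis, labelled triple mutant over cmt3, on the log2(value + 1) scale) with limma's 95% interval as a line, by branch. Filled points passed an adjusted p of 0.05: 4 indolic genes lie to the left of 0 and IMD1, in the aliphatic branch, to the right.

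The stretches upstream of the called indolic genes are shown because the TCX proteins belong to a DNA-binding complex. The CXC domain of their animal relative LIN54 binds the letters TTTGAA or TTCGAA. Each stretch is the 250 bases before the gene's annotated start in RefSeq's TAIR10.1, 5′ to 3′ on the plus strand, which is the coding strand of all 4 genes. In the first pair the capitals mark TTTGAA on either strand (its reverse is TTCAAA). MYB34 is read from chr5:24494041-24494290 and CYP81F2 from chr5:23187590-23187839.
MYB34: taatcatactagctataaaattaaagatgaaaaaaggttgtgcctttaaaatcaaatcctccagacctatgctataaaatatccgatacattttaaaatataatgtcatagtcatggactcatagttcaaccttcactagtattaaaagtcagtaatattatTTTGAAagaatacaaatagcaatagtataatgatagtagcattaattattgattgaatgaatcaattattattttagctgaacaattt
CYP81F2: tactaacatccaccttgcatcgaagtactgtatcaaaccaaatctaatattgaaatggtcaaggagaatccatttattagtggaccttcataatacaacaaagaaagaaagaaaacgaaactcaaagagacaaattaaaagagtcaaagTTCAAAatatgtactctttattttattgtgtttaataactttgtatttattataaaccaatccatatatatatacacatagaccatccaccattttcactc
In the second pair, CYP79B2 from chr4:18524792-18525041 and CYP79B3 from chr2:9488163-9488412, the capitals mark the longest run of letters that both hold.
CYP79B2: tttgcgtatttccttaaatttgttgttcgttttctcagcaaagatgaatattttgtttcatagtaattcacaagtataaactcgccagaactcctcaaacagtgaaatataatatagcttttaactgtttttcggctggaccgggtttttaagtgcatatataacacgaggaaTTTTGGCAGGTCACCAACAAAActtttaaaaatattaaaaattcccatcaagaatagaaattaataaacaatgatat
CYP79B3: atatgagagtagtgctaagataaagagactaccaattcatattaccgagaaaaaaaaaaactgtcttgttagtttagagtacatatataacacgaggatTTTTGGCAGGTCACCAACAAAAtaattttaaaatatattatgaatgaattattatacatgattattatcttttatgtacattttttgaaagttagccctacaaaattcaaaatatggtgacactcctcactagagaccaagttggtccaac

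The run common to CYP79B2 and CYP79B3 is 22 bases long and lies 77 to 56 bases before the start of CYP79B2 and 151 to 130 bases before the start of CYP79B3. Of 27443 windows of this kind before protein-coding genes, 2 hold it, namely these. It was looked for after the windows had been seen. The match TTTGAA begins 88 bases before the start of MYB34 and 101 bases before that of CYP81F2 (minus strand), and occurs at 68 bases (plus strand) and 46 bases (minus strand) before CYP79B3, with none in the CYP79B2 window. It is a common string: 10637 of the 27443 windows (38.8%) hold it, as do 13 of 32 member windows (40.6%), 3 of 8 indolic ones (37.5%) and 6 of 19 aliphatic ones (31.6%). TTCGAA was in 1 of the 32 member windows (3.12%) and in 7.54% of all. The E2F strings TTTCCCGC, TTTGGCGC and TTTGGCGG were in 0 of the 32 and in 405 of all windows (1.48%). The G-box, CACGTG, bound by factors such as MYC2, was in 2 member windows (6.25%), those of CYP83A1 and SUR1, and in 6.49% of all. Both strands were searched for all 6 strings, and a match or its lack describes letters in these windows only.

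Among the indolic regulators, MYB34 had normalized values of 567 and 615 in the labelled triple mutant, against 1006 and 1148 in cmt3. Both libraries of the labelled triple mutant lay below both of cmt3. Its means were 591 ± 33.9 in the labelled triple mutant and 1077 ± 100.4 in cmt3 (SD, n = 2 each), which is -0.86 ± 0.11 on the log2 scale (SE, limma adjusted p = 0.00576). The gene, AT5G60890, lies at chr5:24494291-24496371 in TAIR10.1. MYB51, a MYB factor of the same branch, had 1779.6 and 1775 in the labelled triple mutant, against 1659 and 1571 in cmt3, higher in both labelled triple mutant libraries but by 0.14 ± 0.08 on the log2 scale (SE, limma adjusted p = 0.391, 95% interval -0.05 to 0.33). MYB122 was low and scattered, at 47.9 and 35.4 in the labelled triple mutant, against 18.4 and 58.1 in cmt3, so that its libraries overlapped and its log2 fold change of 0.32 ± 0.58 (SE) had an interval of -1.09 to 1.72. Per kilobase of exon, genes can be set side by side if the deposited values were not already divided by gene length, which is not stated. On that scale MYB34 stood at 333 ± 19.1 in the labelled triple mutant and 606 ± 56.5 in cmt3, and MYB51 at 996 ± 1.88 in the labelled triple mutant and 905 ± 35.0 in cmt3 (SD, n = 2 each). MYB51 was the most abundant of these 3 regulators in each group on that scale, MYB34 was next and MYB122 was lowest. The ratio of MYB34 to MYB51 within a library was 0.319 and 0.346 in the labelled triple mutant, against 0.606 and 0.731 in cmt3. With 2 libraries a group the smallest two-sided p of an exact permutation test is 0.333, so the ratios, which are not scaled by gene length and serve only to compare groups, carry no test.

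The 2 cytochromes P450 that open the indolic branch by converting tryptophan to indole-3-acetaldoxime were both lower. CYP79B2 (AT4G39950, chr4:18525042-18527602) had 1262 and 1114 in the labelled triple mutant, against 1748 and 1986 in cmt3. CYP79B3 (AT2G22330, chr2:9488413-9491404) had 1301 and 1349 in the labelled triple mutant, against 1866 and 1999 in cmt3. In both genes every library of the labelled triple mutant lay below every library of cmt3. The means of CYP79B2 were 1188 ± 104 in the labelled triple mutant and 1867 ± 169 in cmt3 (SD, n = 2 each) and its log2 fold change -0.65 ± 0.10 (SE, limma adjusted p = 0.0137). For CYP79B3 the means were 1325 ± 34.2 in the labelled triple mutant and 1933 ± 94.1 in cmt3 (SD, n = 2 each) and the log2 fold change -0.54 ± 0.08 (SE, limma adjusted p = 0.0105). Their coding sequences are 80.5% identical and lie on different chromosomes. Whether reads were divided between them was not tested. Per kilobase of exon the pair stood close together, CYP79B2 at 556 ± 48.8 in the labelled triple mutant and 874 ± 78.9 in cmt3 and CYP79B3 at 591 ± 15.3 in the labelled triple mutant and 862 ± 42.0 in cmt3 (SD, n = 2 each).

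The next steps of the branch did not pass the test, although their libraries also did not overlap. CYP83B1, which oxidises the indolic aldoxime, had 5066 and 4747 in the labelled triple mutant, against 5379.7 and 5284 in cmt3 (log2 fold change -0.12 ± 0.08, SE, limma adjusted p = 0.474). SOT16, the sulfotransferase that completes the indolic core, had 2529 and 2422 in the labelled triple mutant, against 2857 and 2798 in cmt3 (log2 fold change -0.19 ± 0.07, SE, limma adjusted p = 0.211). The lower end of the interval was -0.31 for CYP83B1 and -0.37 for SOT16. All 4 indolic core genes had both labelled triple mutant libraries below both cmt3 libraries, where 25.7% of all genes were lower without overlap. Of the 4, 2 passed. Set against CYP83B1 in the same library, CYP79B2 was 0.249 and 0.235 in the labelled triple mutant, against 0.325 and 0.376 in cmt3, and CYP79B3 was 0.257 and 0.284 in the labelled triple mutant, against 0.347 and 0.378 in cmt3. The entry enzymes thus stood lower relative to the step that follows them in every library of the labelled triple mutant.

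CYP81F2, the monooxygenase that hydroxylates the indole ring on the way to 4-methoxy-indol-3-ylmethyl glucosinolate, had 628 and 508 in the labelled triple mutant, against 1067 and 932 in cmt3. Its groups did not overlap. The means were 568 ± 85.2 in the labelled triple mutant and 999 ± 96.1 in cmt3 (SD, n = 2 each), which is -0.82 ± 0.14 on the log2 scale (SE, limma adjusted p = 0.0161). The gene is AT5G57220 at chr5:23187840-23189902. Its ratio to SOT16 was 0.248 and 0.210 in the labelled triple mutant, against 0.374 and 0.333 in cmt3. IGMT1, a methyltransferase that acts on the product of CYP81F2 and is not among the 33 genes, fell as well, with 345 and 329 in the labelled triple mutant, against 659 and 614 in cmt3 (log2 fold change -0.92 ± 0.12, SE, limma adjusted p = 0.00613).

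**Figure D2:**
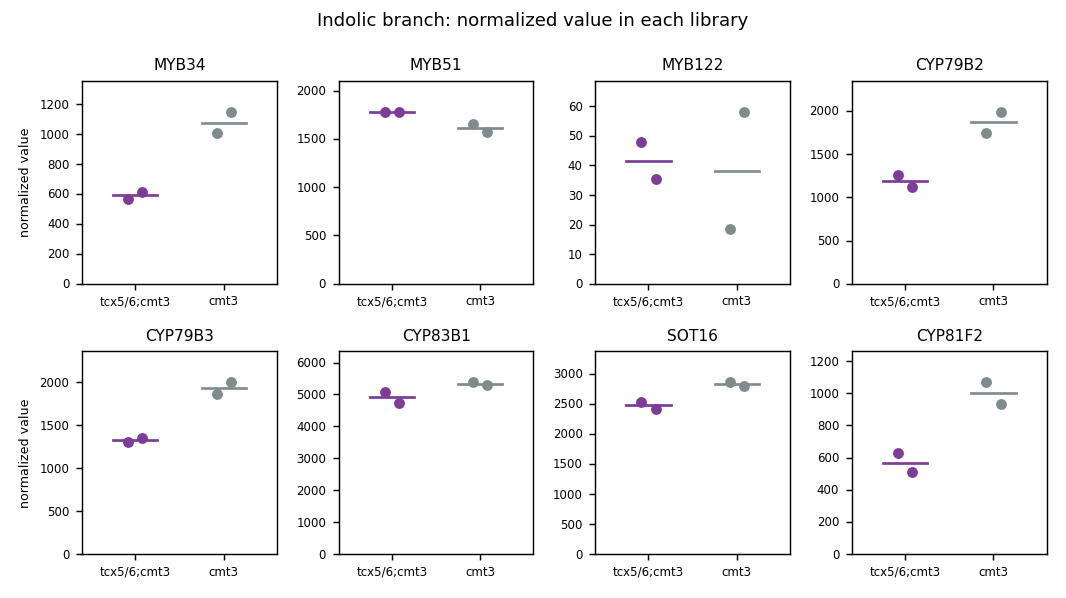
Normalized value of each of the 8 indolic genes in each library (y axis, linear and starting at 0), with points for libraries and a line for the mean of 2. The labelled triple mutant stands left of cmt3. MYB34, CYP79B2, CYP79B3 and CYP81F2, which passed the test, have both its points below both cmt3 points. So do CYP83B1 and SOT16, which did not pass. MYB51 has both its points above, and MYB122 has points that overlap.

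None of the 3 aliphatic regulators passed the test. MYB28, the main activator of the branch, had 2473 and 2695 in the labelled triple mutant, against 2747 and 2776 in cmt3 (log2 fold change -0.10 ± 0.08, SE, limma adjusted p = 0.578). MYB29 had 532 and 564 in the labelled triple mutant, against 443 and 421 in cmt3, above cmt3 in both libraries, by 0.34 ± 0.12 on the log2 scale (SE, limma adjusted p = 0.154), with an interval of 0.06 to 0.62 that does not reach 0 before adjustment. MYB76 was low, at 52.7 and 39.5 in the labelled triple mutant, against 55.3 and 46.5 in cmt3, and its libraries overlapped. Per kilobase of exon MYB28 stood at 1306 ± 79.4 in the labelled triple mutant and 1396 ± 10.3 in cmt3 and MYB29 at 317 ± 13.0 in the labelled triple mutant and 249.6 ± 8.69 in cmt3 (SD, n = 2 each), and MYB76 was lowest of the 3 in each group. The ratio of MYB29 to MYB28 was 0.215 and 0.209 in the labelled triple mutant, against 0.161 and 0.152 in cmt3, so that the make-up of the regulators leaned toward MYB29 in the labelled triple mutant libraries, without a test. MYB29 and MYB76 are neighbours, 1442 bases apart, with coding sequences 77.5% identical.

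IMD1, an isopropylmalate dehydrogenase that carries out the oxidative step when methionine is elongated, was the only member called higher. It had 9268 and 9331 in the labelled triple mutant, against 6300.1 and 6312 in cmt3, with replicates far closer to each other than the groups were. The log2 fold change was 0.56 ± 0.08 (SE, limma adjusted p = 0.00895). IMD1 (AT5G14200, chr5:4576123-4578402) overlaps the opposite-strand gene AT5G14210 by 25 bases, and whether the authors counted by strand is not stated. That neighbour had 1763 and 1849 in the labelled triple mutant, against 1925 and 1694 in cmt3 (log2 fold change 0.00, limma adjusted p = 0.999). The other 5 chain-elongation genes did not pass. MAM1, the methylthioalkylmalate synthase of the same cycle, had 9516 and 9896 in the labelled triple mutant, against 11547 and 9089 in cmt3, and MAM3, which makes longer chains, had 3558 and 3363 in the labelled triple mutant, against 2868 and 3031 in cmt3 (log2 fold change 0.23 ± 0.08, SE, limma adjusted p = 0.158). The ratio of IMD1 to MAM1 was 0.974 and 0.943 in the labelled triple mutant, against 0.546 and 0.695 in cmt3. MAM1 and MAM3 are 83.8% identical in coding sequence and lie 11144 bases apart. Their summed values were 13074 and 13259 in the labelled triple mutant, against 14415 and 12119.9 in cmt3. A sum evens out the division of reads between them, but not reads dropped or counted for both, and the counter is not stated. BCAT4, the aminotransferase that starts elongation, had a log2 fold change of 0.04 ± 0.08, BCAT3, which ends it, -0.08 ± 0.09, and BAT5, the chloroplast carrier of the keto acids, 0.03 ± 0.09 (SE), each with overlapping libraries.

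The aliphatic core showed no call among 6 tested genes, with a median log2 fold change of -0.07. CYP79F1, which converts elongated methionine to aldoximes, had 4012 and 4066 in the labelled triple mutant, against 5013 and 3953 in cmt3. CYP79F2, which acts on long chains, had 999 and 905 in the labelled triple mutant, against 597 and 995 in cmt3. The pair is 91.9% identical in coding sequence and 1183 bases apart, so the division of reads between them is uncertain. Their sum was 5011 and 4971 in the labelled triple mutant, against 5609.6 and 4948 in cmt3, and the groups overlapped. CYP83A1, the counterpart of CYP83B1, had 8568 and 8980.0 in the labelled triple mutant, against 9707 and 8973 in cmt3, and those libraries overlapped too (log2 fold change -0.09 ± 0.09, SE, interval -0.31 to 0.13). UGT74C1, a glucosyltransferase, and the sulfotransferases SOT17 and SOT18 had log2 fold changes of -0.08 ± 0.08, -0.06 ± 0.09 and 0.02 ± 0.08 (SE). GSTF11, the glutathione transferase of this branch, lies wholly inside the opposite-strand gene AT3G03200, and its 0 was not read as absence of expression.

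**Figure D3:**
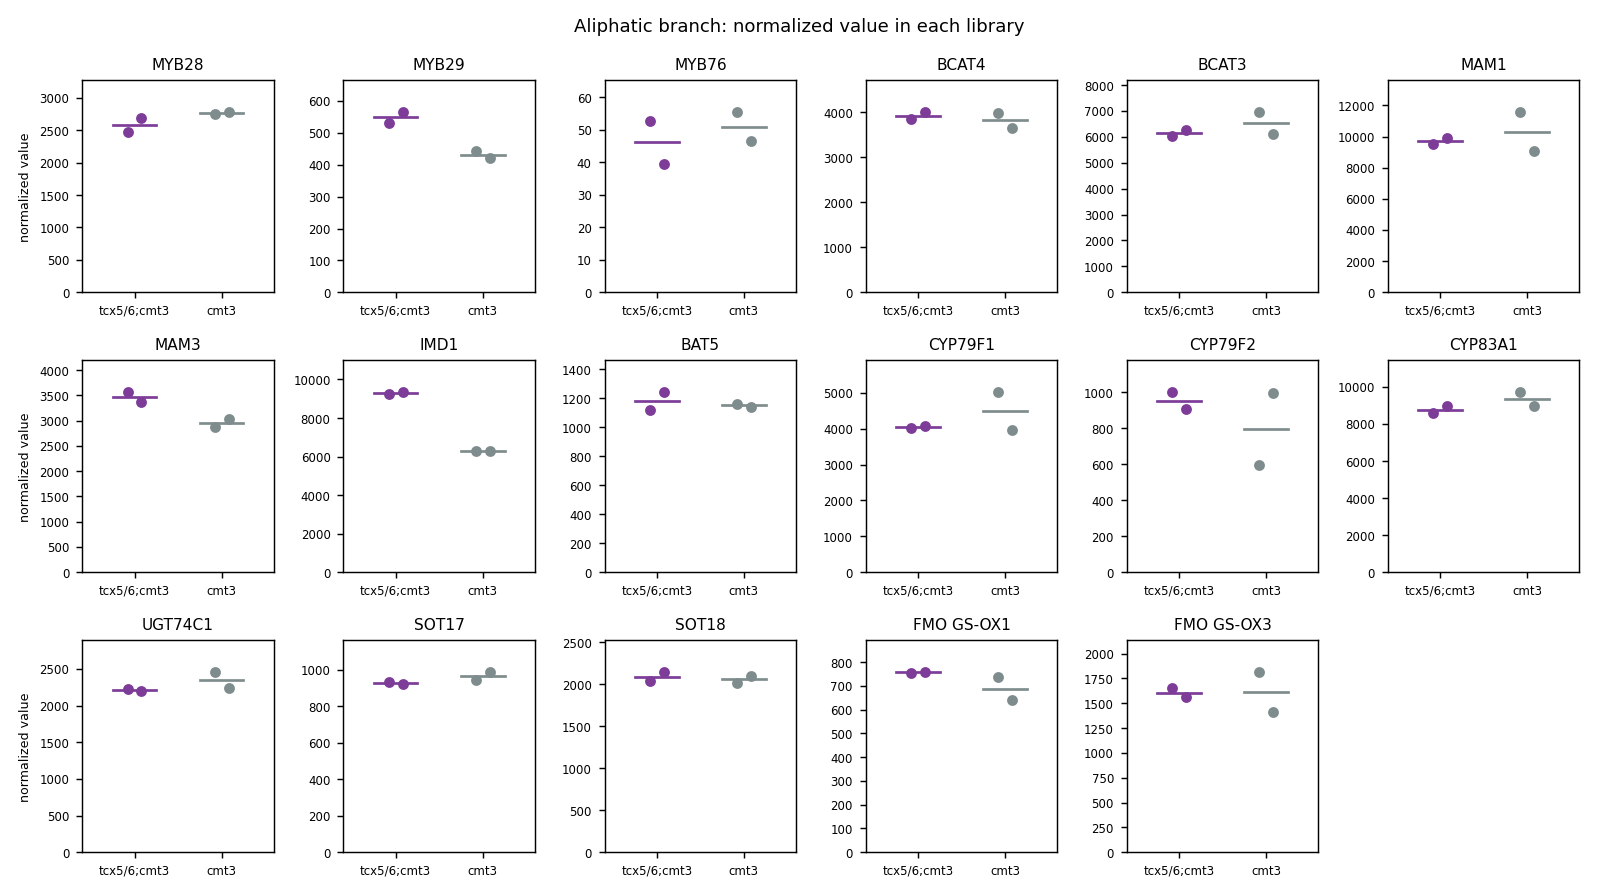
Normalized value of each tested aliphatic gene except AOP3 in each library (y axis, linear and starting at 0), with points for libraries and a line for the mean of 2. The labelled triple mutant stands left of cmt3; IMD1, at 9268 and 9331 against 6300.1 and 6312, is the only panel that passed the test.

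Side-chain genes of the aliphatic branch did not pass. FMO GS-OX1 (FMOGS-OX1), which oxidises methylthio to methylsulfinyl glucosinolates, had 756 and 758 in the labelled triple mutant, against 737 and 639.6 in cmt3. FMO GS-OX3 (FMOGS-OX3), of the same family and 83.1% identical in coding sequence, had 1652 and 1564 in the labelled triple mutant, against 1812 and 1416 in cmt3. Their log2 fold changes were 0.14 ± 0.11 and 0.00 ± 0.13 (SE), with intervals of -0.13 to 0.41 and -0.30 to 0.31. AOP3, which makes hydroxyalkyl glucosinolates in other accessions, was near the filter limit, at 2.46 and 1.65 in the labelled triple mutant, against 0 and 3.69 in cmt3, with an interval of -1.95 to 2.92.

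Genes that serve both branches did not pass. GGP1, the peptidase that trims the glutathione conjugate, had a log2 fold change of 0.13 ± 0.10, and UGT74B1, the main glucosyltransferase, one of 0.09 ± 0.07 (SE). SUR1, the C-S lyase, had 4425 and 4145 in the labelled triple mutant, against 3553 and 3638 in cmt3, above cmt3 in both libraries (log2 fold change 0.25 ± 0.08, SE, limma adjusted p = 0.122). GTR1, a plasma membrane importer that loads glucosinolates into phloem, had 5672 and 5145 in the labelled triple mutant, against 4989 and 3621 in cmt3 (log2 fold change 0.35 ± 0.15, SE, limma adjusted p = 0.282). It overlaps the opposite-strand gene AT3G47950 by 58 bases, which fell, at 115 and 113 in the labelled triple mutant, against 214 and 231 in cmt3 (log2 fold change -0.95, limma adjusted p = 0.0334). GTR2, its partner importer, had 2849.6 and 2864 in the labelled triple mutant, against 2986 and 3439.7 in cmt3, below cmt3 in both libraries (log2 fold change -0.17 ± 0.09, SE, limma adjusted p = 0.383).

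Summed over the branch per kilobase of exon, the indolic genes held 7413 and 7066 in the labelled triple mutant, against 8710.2 and 8766 in cmt3. The aliphatic genes held 31039.5 and 31753 in the labelled triple mutant, against 31519 and 28919.9 in cmt3. The indolic sum was therefore 23.9% and 22.3% of the aliphatic sum in the labelled triple mutant, against 27.6% and 30.3% in cmt3, and the groups did not overlap. These values are descriptions of 2 libraries a group, and CYP83B1 is the most abundant gene of the indolic sum. That sum includes the 4 indolic genes called lower, so its difference follows in part from theirs and adds no support.

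**Figure D4:**
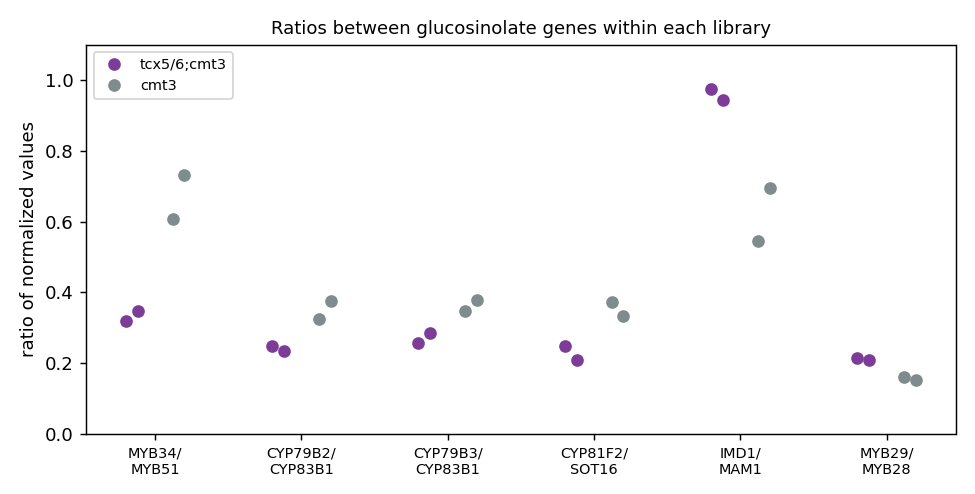
Ratio of the normalized values of 2 genes within each library (y axis, linear from 0), with points for libraries and the labelled triple mutant left of cmt3. MYB34/MYB51, both CYP79B ratios and CYP81F2/SOT16 are lower in the labelled triple mutant, and IMD1/MAM1 and MYB29/MYB28 are higher. The groups do not overlap in these ratios. All but MYB29/MYB28 have a called gene as numerator, so they follow from its change and add no support. Of the ratios not drawn, CYP79F2/CYP79F1 overlapped (0.249 and 0.223 in the labelled triple mutant, against 0.119 and 0.252 in cmt3). MAM3/MAM1 did not (0.374 and 0.340 in the labelled triple mutant, against 0.248 and 0.333 in cmt3).

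Other pathway genes were read against the shares of all genes called, 6.15% higher and 2.32% lower. The 22 further genes include isopropylmalate isomerase subunits, glutathione transferases, monooxygenases and methyltransferases. Of these, 21 were tested, 0 rose and 1 fell, IGMT1, and the median was -0.06 on the log2 scale. The next smallest p-values belonged to GGP3 (-0.30 ± 0.08, SE, limma adjusted p = 0.0799), the isomerase subunit IPMI SSU3 (IPMI_SSU3, 0.30 ± 0.08, adjusted p = 0.0817) and FMO GS-OX4 (FMOGS-OX4, -0.27 ± 0.08, adjusted p = 0.122). Of 5 tested genes upstream of the MYB factors, 0 passed, IQD1 being nearest (log2 fold change 0.36 ± 0.12, SE, limma adjusted p = 0.143). Their partner MYC2 is listed at 0 in all 4 libraries and lies over an opposite-strand gene, AT1G32630. Of 5 genes that supply tryptophan and glutathione, TSA1, the alpha subunit of tryptophan synthase, rose, with 3540.3 and 3274 in the labelled triple mutant, against 2496 and 2612 in cmt3 (log2 fold change 0.42 ± 0.08, SE, limma adjusted p = 0.0272). ASA1, the first committed enzyme toward tryptophan, did not pass (log2 fold change 0.12 ± 0.12, SE).

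Jasmonate induces the pathway in Arabidopsis, and its marker genes were set beside the members. Whether jasmonate had a part in the indolic changes was not tested. Of 7 such genes, 3 fell and 0 rose, where 2.32% of all genes were called lower and 6.15% higher. The median of the 7 was -0.39 on the log2 scale. The 3 were the repressor gene JAZ5, at 172 and 188 in the labelled triple mutant, against 388 and 435 in cmt3 (log2 fold change -1.19 ± 0.16, SE, limma adjusted p = 0.00694), and the storage proteins VSP1 (-1.11 ± 0.17, SE, adjusted p = 0.0114) and VSP2 (-0.99 ± 0.14, SE, adjusted p = 0.00825). JAZ1 did not pass (log2 fold change -0.39 ± 0.10, SE, limma adjusted p = 0.0648), and neither did LOX2 (-0.33) or JAZ10 (-0.05). The defensin PDF1.2 did not pass and had the opposite sign (log2 fold change 1.86 ± 0.48, SE, limma adjusted p = 0.0720). Among 9 sulfur deficiency genes, 1 rose and 0 fell: BGLU28, a glucosidase induced when sulfur is short, had 1173 and 1044 in the labelled triple mutant, against 581 and 361 in cmt3 (log2 fold change 1.27 ± 0.22, SE, limma adjusted p = 0.0180). SDI1, a repressor of the aliphatic MYB factors under sulfur shortage, did not pass (log2 fold change -0.44 ± 0.18, SE, limma adjusted p = 0.222).

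Markers of cell types were set beside these changes, where 2.32% of all genes were called lower and 6.15% higher. Of 4 myrosin cell genes, 1 fell and 0 rose: TGG2, a myrosinase, had 19235 and 19958 in the labelled triple mutant, against 44364 and 33192 in cmt3 (log2 fold change -0.97 ± 0.17, SE, limma adjusted p = 0.0201), and TGG1, the other one, had 59384 and 52628 in the labelled triple mutant, against 111520.0 and 74247 in cmt3 without passing. The 4 genes summed to 79475 and 73218 in the labelled triple mutant, against 156835 and 108159 in cmt3, mostly from TGG1 and TGG2. KCS13 (log2 fold change 0.08) and FAMA (-0.25) did not pass, and their libraries overlapped between groups. Of 5 leaf, 5 root and 4 phloem markers, 0 passed in either direction. The leaf markers summed to 994699 and 1029977 in the labelled triple mutant, against 1170968 and 933164 in cmt3. The root markers summed to 56879 and 51609.6 in the labelled triple mutant, against 61188 and 92286 in cmt3. PYK10, a root glucosidase, made up most of that sum, with 52693 and 47919 in the labelled triple mutant, against 57523 and 87399 in cmt3. SCR was also lower without overlap, with 1581 and 1640 in the labelled triple mutant, against 1780 and 1669 in cmt3 (log2 fold change -0.10 ± 0.08, SE). COBL9, EXPA7 and XTH14 overlapped between groups. All 5 root markers had a negative log2 fold change. The phloem markers summed to 10088 and 11071 in the labelled triple mutant, against 12932 and 11467 in cmt3. Of the 4, 3 were lower without overlap, where 25.7% of all genes were, and APL overlapped. GRXS2 had the smallest p-value of the 4 (log2 fold change -0.43 ± 0.12, SE, limma adjusted p = 0.0914). The part of cell make-up in the indolic changes was not tested.

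**Figure D5:**
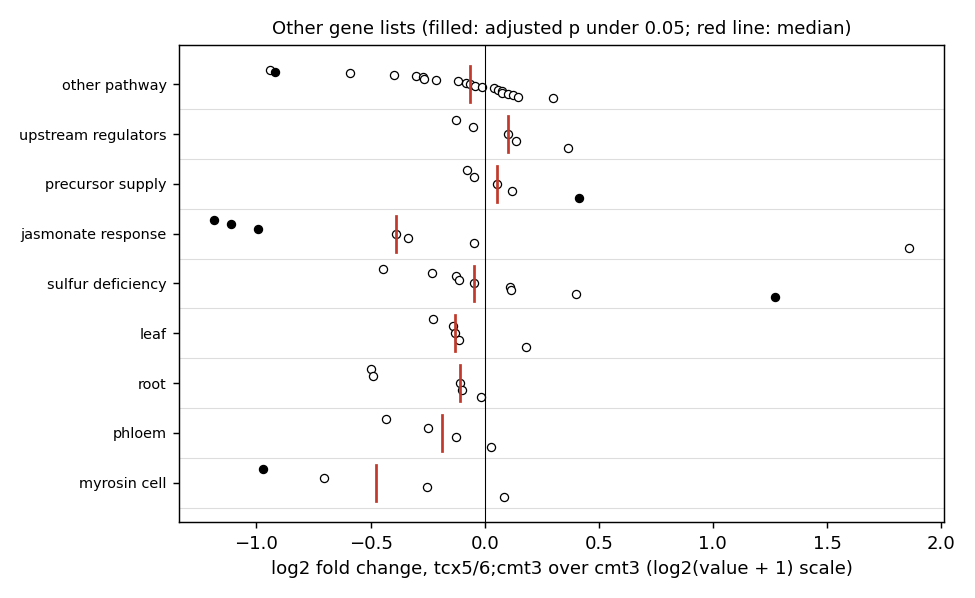
Log2 fold change (x axis, labelled triple mutant over cmt3, log2(value + 1) scale) of each tested gene in 9 further lists, with a red line at each list's median. Filled points passed an adjusted p of 0.05: 3 jasmonate genes, 1 myrosin cell gene and 1 other pathway gene lie left of 0, and 1 precursor and 1 sulfur gene right of it.

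The calls rest on few libraries. Without the mean-variance trend limma passed 0 members in either direction, with adjusted p from 0.0765 for MYB34 to 0.135 for CYP81F2 and 6 members under an unadjusted p of 0.05. In that fit the genes IGMT1 (limma adjusted p = 0.0505), TSA1 (0.174), VSP1 (0.130), VSP2 (0.117), BGLU28 (0.161), TGG2 (0.122) and CMT3 (0.111) also missed the threshold, and JAZ5 (0.0462), TCX5 (0.0265) and TCX6 (0.0253) passed it. With the trend but without replicate 1 of the labelled triple mutant it passed 3 members, MYB34, CYP79B2 and CYP81F2, and without replicate 2 only MYB34, all lower, and 0 of them when the genes were kept as for 4 libraries (5 members under an unadjusted p of 0.05 in each fit). Without either cmt3 library, more genes passed over the whole table than with 4 libraries. Members that passed only in those fits are therefore not listed. With the genes kept as for 4 libraries, MYB34, CYP79B3 and IMD1 passed when each cmt3 library was left out in turn (1 higher, 2 lower), and CYP79B2 and CYP81F2 did not. TSA1 and TGG2 missed the threshold without replicate 1 (adjusted p = 0.341 and 0.293) and without replicate 2 of the labelled triple mutant (0.151 and 0.246), and with the genes kept as for 4 libraries TSA1 did so without cmt3 replicate 1 (0.0849) and 2 (0.0600) as well. IGMT1, JAZ5, VSP1, VSP2 and BGLU28 missed it when each labelled triple mutant library was left out in turn with the genes kept as for 4 libraries. The signs of the 5 called members stayed the same in every alternative refitted. Across the fits the log2 fold change ran from -0.96 to -0.77 for MYB34 and from -0.74 to -0.56 for CYP79B2. It ran from -0.59 to -0.49 for CYP79B3, from -0.97 to -0.67 for CYP81F2 and from 0.51 to 0.59 for IMD1.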

How the data were processed

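Per the labels' protocols, mRNA-seq libraries were made from RNA that TRIzol yielded from 1 g of seedlings. The authors used HISAT2, edgeR and the TAIR10 build, as named without versions per the submitters' processing notes. Not given in the sources used here are the counter, its strand setting, the annotation and any filter. The authors deposited a normalized signal per gene and library, fractional and with similar totals, by a scaling step that is likewise not stated. The values are not divided by gene length as far as the table shows, so levels and branch sums are compared after division by exon length in kilobases from RefSeq's TAIR10.1, and ratios of undivided values serve only to compare groups.

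With a tolerance of 0.1, between 34.2% and 50.9% of the low values of a library were whole multiples of a single step, so whole reads could not be recovered. The depth is unknown and no count test was used, although the design planned one in case the values were counts. Values under 1e-10 were set to 0. All 32548 gene identifiers matched TAIR10.1 locus tags. Another 4 per-sample columns of the table match none of the samples. Their ranges came up when units were checked, and no result uses them. The filter kept the 23666 genes that reached a value of 1 in at least 2 libraries. Log2(value + 1), which understates changes of low genes, went into limma 3.58.1 (R 4.3.3) with group as the term and a mean-variance trend. Benjamini-Hochberg adjustment ran over all genes, with a threshold of 0.05. Promoter windows and motifs were read with Python 3.11.15 and Biopython 1.88, and figures were drawn with matplotlib 3.10.9.

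The genes named are the 33 members, the 3 mutated genes and up to 4 tested genes with the smallest p-values of each other list, plus genes that overlap a member. PDF1.2, LOX2, JAZ10, MYC2 and the gene AT1G32630 that overlaps MYC2, and XTH14 lie outside that rule and were named after their values were seen. Members and lists were chosen with earlier results of these data known. The alternatives were other scalings, filters and pseudocounts, a fit without the trend, a stricter threshold, a replicate block and the loss of each library.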

Additional observations from a re-analysis of the deposited data

How the results depend on the processing

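The 5 called members (MYB34, CYP79B2, CYP79B3 and CYP81F2 lower, IMD1 higher) passed limma with quantile normalization, median centring, no filter, a filter at 5, a pseudocount of 0.1 and a replicate block, and kept their sign in all 15 alternatives that were refitted. Of the 31 tested members 11 changed sign in at least 1 alternative, none of them a called one. Median centring on genes with a mean of 100 or more gave median log2 fold changes of -0.0377 (aliphatic) and -0.4179 (indolic). Without the trend 586 genes were higher and 135 lower, with 0 members in either direction and 6 under an unadjusted p of 0.05. At a threshold of 0.01, 780 genes were higher and 173 lower, and of the members IMD1 was higher and 1, MYB34, lower. Leaving out each library in turn, with the filter applied to the 3 left, gave 720 to 3068 higher genes and 212 to 2568 lower ones, 0 to 4 members higher and 1 to 6 lower, an aliphatic median of -0.0241 to 0.0212 and an indolic one of -0.5391 to -0.3504. With the genes kept as for 4 libraries, an alternative chosen after seeing the data, the counts ran from 0 to 1281 higher, 0 to 530 lower, 0 to 1 member higher and 0 to 2 lower, with 341 lower genes without cmt3 replicate 1. The 0 calls arose without either labelled triple mutant library, when 2407 and 2490 genes had an unadjusted p under 0.05. Without a library, the lone one is assumed to vary like the other group. XTH14, a root marker, had a log2 fold change of -0.01 with 4 libraries, 0.38 without cmt3 replicate 2 (limma adjusted p = 0.0099) and -0.40 without cmt3 replicate 1. The causes were not tested. Deviations of same-numbered libraries from their group means had a correlation of 0.00063 across genes. With 2 libraries a group, that value cannot show whether same-numbered libraries shared a batch. The replicate block changed no member's call (1 higher, 4 lower). A DESeq2 fit was not run because the values are not counts. With 2 libraries a group and an unknown depth, small changes cannot be seen.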
